A study of Rattus norvegicus with 138 samples.

Results

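Aldh1a1, an aldehyde dehydrogenase that makes retinoic acid, was measured with 7 further genes of the retinoic acid pathway in 3 nuclei of the rat brainstem. The genes were Aldh1a1 and Aldh1a2 (synthesis), Crabp1 and Crabp2 (binding proteins), Rara, Rarb and Rxrg (receptors) and Cyp26b1 (breakdown), found by symbol as 8 of the 32883 genes in the count table of each region. They were selected on the measured Aldh1a1 levels at 24 wk, because the difference between SHRs and WKY rats at that age was not the same in the NTS and RVLM. Strain differences of the 8 genes in these regions at 24 wk are therefore given as a description with no test. Strain tests of the 8 genes compare rats of the other ages, and in the CVLM rats of every age. The 24-wk rats stay in the main fits, where they enter the scaling and the estimate of spread. Other retinoid genes, listed for context, were tested at all 5 ages in each region. Comparisons of level between regions pool the 5 ages and so include the 24-wk rats.

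The study followed female spontaneously hypertensive rats (SHR/NHsd, SHRs) and normotensive Wistar-Kyoto rats (WKY/NHsd, WKY rats), inbred strains compared with no treatment groups, from before the rise in blood pressure to chronic hypertension. Ages were 8, 10, 12, 16 and 24 wk, with 5, 4, 3, 3 and 3 WKY rats and 5, 5, 6, 6 and 6 SHRs. Bilateral punches of the nucleus of the solitary tract (NTS), which receives baroreceptor input, the caudal ventrolateral medulla (CVLM), which relays it as inhibition, and the rostral ventrolateral medulla (RVLM), which drives sympathetic outflow, were pooled per rat and sequenced. Every one of the 46 rats gave 1 library per region, so that replicates were separate rats and regions were compared within rats.

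Retinoic acid is made from vitamin A in successive oxidations, of which retinaldehyde dehydrogenases (Aldh1a enzymes) carry out the last and irreversible step. Crabp proteins carry it within the cell, Cyp26 enzymes break it down, and receptors of the Rar family bind DNA with an Rxr partner at repeated copies of a short hexamer. In the embryo the pathway patterns the hindbrain along its length, and in the adult brain Aldh1a1 is known for dopamine neurons of the midbrain and Aldh1a2 for the meninges.

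The sequence before the Aldh1a1 start is shown because Aldh1a1 carries most of the calls below, and the Rarb element because it is the classic element through which retinoic acid induces its own receptor. All 8 genes had a promoter window of 250 bases before and 50 after the start in RefSeq (assembly GRCr8, from a rat of another strain, whereas the counts were made on rn6, so that alleles of SHRs and WKY rats are not shown). Capitals mark CCAAT, the octamer ATGCAAAT and the receptor hexamer GGGTCA (on the minus strand as TGACCC, sharing 1 base with the octamer) in Aldh1a1 at chr1:227537370-227537619, plus strand, and both hexamers of the repeat in Rarb at chr15:11336416-11336432, plus strand.
Aldh1a1, 250 bases before the start: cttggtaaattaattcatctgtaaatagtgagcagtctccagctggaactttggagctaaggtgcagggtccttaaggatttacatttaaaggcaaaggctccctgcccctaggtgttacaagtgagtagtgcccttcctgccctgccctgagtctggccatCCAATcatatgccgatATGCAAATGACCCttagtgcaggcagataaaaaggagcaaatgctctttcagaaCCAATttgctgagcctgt
Rarb, from base 25 after the start: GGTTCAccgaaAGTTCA
CCAAT stood 88 and 18 bases before the Aldh1a1 start, the octamer 72 and the hexamer 65 bases before it. On either strand, the 250 bases before the start held CCAAT in 34% of 33469 rat promoters, the octamer in 1.56% and GGGTCA in 11.9%. Aldh1a2 also held CCAAT, 85 bases, and the octamer, 133 bases, before its start. The receptor hexamer was searched as AGGTCA, as GGGTCA, in the form AGTTCA and in the form GGTTCA, and pairs in the same direction with 5 bases between them lay in 0.382% of the whole windows and, among the 8 genes, in Rarb. Pairs with 1 or 2 bases between them, in 0.233% and 0.17% of windows, were found in none of the 8. These are matches of letters and not tested sites.

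Counts assigned to genes ran from about 5904570 to 17889400 per library, with a median of about 10143000. Levels are given as CPM, counts per library size scaled by TMM, and since no gene lengths were used, they are compared within a gene and not between genes. Punches are mixed tissue, in which fewer cells of a type and less RNA per cell cannot be told apart. Chat, the acetylcholine enzyme of motor neurons, had a median of 231 CPM in the RVLM, 67.0 CPM in the NTS and 17.8 CPM in the CVLM. Pnmt, the adrenaline enzyme of C1 neurons, had medians of 18.6 CPM in the RVLM, 40.8 CPM in the CVLM and 3.92 CPM in the NTS, so that the RVLM punches held more cholinergic and fewer adrenergic transcripts than the CVLM punches. Tlx3, a transcription factor of NTS neurons, had a median of 0.552 CPM in the NTS, where Lmx1b was at 0 CPM in the median library. Library names end in the number 1 or 2, whose meaning is not stated, and 2 stood on every 10-wk library, on 3 of 5 WKY rats at 8 wk and on 1 SHR each at 12 and 24 wk, in all regions. Calls of named genes that were lost without those of 8, 12 and 24 wk are given with and without them. The 8-wk CVLM libraries of SHR 5 and WKY 5 carry conflicting ages in their labels and were placed by title.

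Over 8 to 16 wk, Aldh1a1 was higher in SHRs than in WKY rats in the NTS (mean log2 difference 0.55) and lower in the CVLM (-0.28) and RVLM (-0.43), with the tests given below. In the CVLM the order was not the same at each age, since SHRs were lower at 8 and 10 wk and all 6 SHRs of 24 wk lay above every WKY rat. Over all ages, the 24-wk rats of the choice included, it averaged 66.5 ± 19.0 CPM in WKY rats (SD, n = 18) and 102 ± 15.7 CPM in SHRs (n = 28) in the NTS. It averaged 174 ± 35.5 and 150.4 ± 21.6 CPM in the CVLM and 324 ± 48.8 and 246 ± 34.3 CPM in the RVLM. These means rest on 247 to 6926 counts per library.

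**Figure D1:**
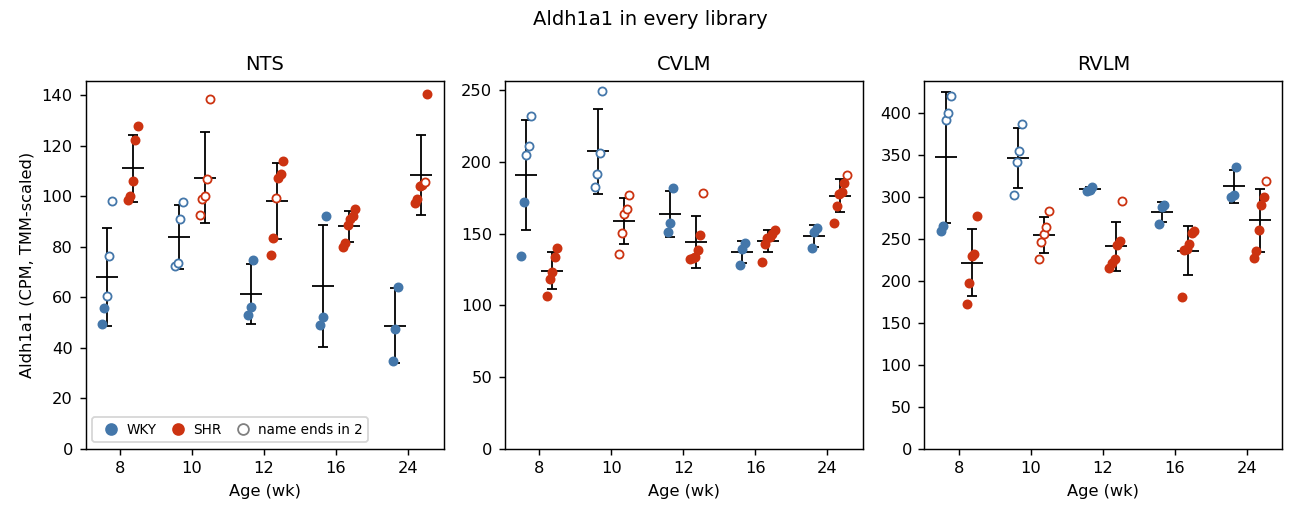
Aldh1a1 in every library, in CPM on TMM-scaled library sizes, by age in weeks for the NTS, CVLM and RVLM, with WKY rats in blue, SHRs in red, and open circles for libraries whose name ends in 2. Horizontal lines are group means and whiskers ± 1 SD (n = 3 to 6), each panel has its own axis from 0, and the SHRs lie above the WKY rats in the NTS at 8, 12 and 24 wk and below them in the RVLM at 10, 12 and 16 wk.

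In the NTS at 8 wk, the 5 WKY rats had 55.8, 49.5, 60.3, 76.2 and 98.1 CPM and the 5 SHRs 106, 100.1, 128, 98.4 and 122 CPM. The groups did not overlap, although the highest WKY rat lay just under the lowest SHR. At 10 wk, WKY rats had 90.8, 97.8, 73.7 and 72.5 CPM and SHRs 138.3, 99.0, 92.7, 107 and 100.03 CPM, and the ranges met. The WKY rats of 12 wk had 74.8, 53.0 and 56.1 CPM, all under the 6 SHRs, whose lowest, median and highest values were 76.5, 103 and 114 CPM. At 16 wk, WKY rat 1 with 92.1 CPM reached into the SHR range of 80 to 95.0 CPM (median 89.8), while the other WKY rats had 48.9 and 52.3 CPM. At 24 wk, the age of the choice, WKY rats had 64.1, 34.6 and 47.3 CPM and SHRs 97.1 to 140.2 CPM (median 104), with no overlap.

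Fitted with edgeR, the strain difference in the NTS was a log2 fold change of 0.71 ± 0.17 (SE) at 8 wk (adjusted p = 0.00708), where 5.79% of all genes tested were called at an adjusted p under 0.05. The values were 0.36 ± 0.18 at 10 wk (adjusted p = 0.282), 0.68 ± 0.19 at 12 wk (adjusted p = 0.0374, background 3.1%) and 0.45 ± 0.19 at 16 wk (adjusted p = 0.525), so that the sign was the same at each age and 2 of the 4 ages passed. The call at 12 wk was lost when SHR 2, 4, 5 or 6 or WKY rat 2 or 3 of that age was left out (adjusted p 0.0575 to 0.277). The mean difference over 8 to 16 wk, whose contrast leaves out the rats of the choice, was 0.55 ± 0.09, or 1.46-fold (adjusted p = 1.87e-05). Those rats were in the same fit and so enter its scaling and its estimate of spread. The described value at 24 wk was 1.15 ± 0.20, or 2.22-fold.

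In the CVLM at 8 wk, WKY rats had 135, 172, 211, 205 and 232 CPM and SHRs 134, 107, 139.7, 123 and 118 CPM, with WKY rat 1 inside the SHR range. At 10 wk, the WKY rats had 206, 191, 182 and 249.3 CPM, all above the SHRs with 167, 177, 136, 164 and 150.5 CPM. At 12 wk, WKY rats had 157, 151 and 182 CPM and SHRs 133 to 178 CPM (median 136), and at 16 wk WKY rats had 128, 144 and 139 CPM and SHRs 130.4 to 152 CPM (median 147). The ranges met at both ages, with 5 of 6 SHRs below every WKY rat at 12 wk and 4 of 6 above every WKY rat at 16 wk. At 24 wk, the WKY rats with 154, 151 and 139.7 CPM all lay below the SHRs, which had 157 to 191 CPM (median 178).

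The strain difference in the CVLM was -0.62 ± 0.10 on the log2 scale at 8 wk (adjusted p = 4.58e-05, background 7.64% called) and -0.38 ± 0.11 at 10 wk (adjusted p = 0.0372, background 3.18%). It did not pass at 12 wk (-0.18 ± 0.11, adjusted p = 0.661), 16 wk (0.08 ± 0.12, adjusted p = 1) or 24 wk (0.25 ± 0.12, adjusted p = 0.185). The 10-wk call was lost when SHR 3, 4 or 5 or WKY rat 1 or 4 of that age, or WKY rat 1 of 24 wk, was left out (adjusted p 0.0542 to 0.300). The mean over 8 to 16 wk was -0.28 ± 0.06 (adjusted p = 0.000282).

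In the RVLM at 8 wk, WKY rats had 265, 259.8, 400.1, 392 and 420.5 CPM and SHRs 229, 198, 278, 172 and 232 CPM, with SHR 3 above the lowest WKY rats. At 10 wk, WKY rats had 342, 302, 355 and 388 CPM and SHRs 265, 226, 284, 247 and 256 CPM. The groups did not overlap at this age, nor at 12 wk, with 307, 309 and 312 CPM in WKY rats and 215 to 295 CPM (median 234.5) in SHRs. At 16 wk they again did not overlap, with 268, 288 and 290.3 CPM in WKY rats and 180.4 to 259.7 CPM (median 241) in SHRs. At 24 wk, WKY rats had 301, 303 and 336 CPM and SHRs 227 to 319.8 CPM (median 276), and the ranges met.

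The difference in the RVLM was -0.65 ± 0.13 at 8 wk (adjusted p = 0.000559, background 9.78% called). It was -0.44 ± 0.13 at 10 wk (adjusted p = 0.0715), -0.36 ± 0.14 at 12 wk (adjusted p = 0.376) and -0.26 ± 0.14 at 16 wk (adjusted p = 1), none of which passed. The mean over 8 to 16 wk was -0.43 ± 0.07, a 1.34-fold lower level (adjusted p = 6.11e-06). The described value at 24 wk was -0.20 ± 0.14.

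The 8-wk values of WKY rats moved with the number that ends the library name in each region. In the NTS, the 3 WKY libraries ending in 2 had 60.3 to 98.1 CPM and the 2 ending in 1 had 49.5 and 55.8 CPM. In the RVLM, the 3 WKY libraries ending in 2 had 392 to 420.5 CPM and the 2 ending in 1 had 259.8 and 265 CPM, while every 8-wk SHR library ended in 1. Without the libraries ending in 2 at 8, 12 and 24 wk, the 8-wk difference was -0.27 in the CVLM (adjusted p = 0.467) and -0.27 in the RVLM (adjusted p = 0.478), and in the NTS it was 1.08, past the threshold. These fits held 2 WKY rats of 8 wk, so that loss through fewer rats and loss through the ending number cannot be told apart. Without the same libraries, the means over 8 to 16 wk passed too, at 0.64 (NTS, adjusted p = 3.28e-06), -0.20 (CVLM, adjusted p = 0.00480) and -0.35 (RVLM, adjusted p = 1.63e-05).

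**Figure D2:**
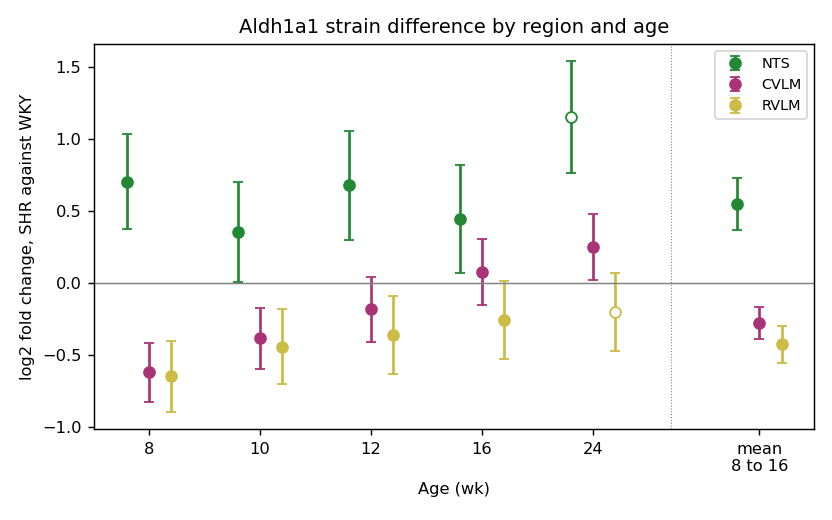
Strain difference of Aldh1a1 as a log2 fold change, SHRs against WKY rats, by age in weeks and as the mean of 8 to 16 wk, with the NTS in green, the CVLM in purple and the RVLM in yellow. Bars are 95% intervals, open symbols are the values used for the choice, and the NTS lies above 0 at every age (0.36 to 1.15) while the RVLM lies below it (-0.65 to -0.20).

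Whether the strain difference itself differed between regions was tested in a single fit of all libraries with the rat as a block. The NTS minus RVLM difference in Aldh1a1 was 1.39 ± 0.17 at 8 wk (adjusted p = 4.87e-08, background 0.983%), 0.74 ± 0.18 at 10 wk (adjusted p = 0.0356, background 0.42%), 1.04 ± 0.19 at 12 wk (adjusted p = 0.00165, background 0.235%) and 0.75 ± 0.19 at 16 wk (adjusted p = 0.739). It was positive at each of these ages and 0.98 ± 0.09 for their mean (adjusted p = 1.36e-13). The 10-wk call was lost with the rat left out of the fit (0.75, adjusted p = 0.115) and, by limma voom, without WKY rat 3 of that age (0.69, adjusted p = 0.0650), and the 12-wk call without WKY rat 2 of that age (0.97, adjusted p = 0.0794). Against the CVLM, the NTS differed by 1.37 ± 0.17 at 8 wk (adjusted p = 9.96e-08, background 0.0498%), 0.84 ± 0.19 at 12 wk (adjusted p = 0.0490, background 0.0641%) and 0.83 ± 0.09 for the mean (adjusted p = 2.83e-10), of which the 12-wk call was lost in 27 of the 46 fits that left out a rat and in 3 of the 6 other alternatives (highest adjusted p 0.254). The CVLM minus RVLM difference for the mean was 0.15 ± 0.09 (adjusted p = 1), with a 95% interval of -0.02 to 0.33. At 24 wk the described differences were 1.39 for NTS minus RVLM, 0.89 for NTS minus CVLM and 0.49 for CVLM minus RVLM.

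Of the 96 tests of the 8 genes at 8, 10, 12 and 16 wk over the 3 pairs of regions, 5 passed, against 0.157% of such tests over all genes, and all 5 were Aldh1a1. For the mean of these ages, 2 of 8 genes passed for NTS minus RVLM (background 1.57%) and 1 of 8 for NTS minus CVLM (0.32%). For CVLM minus RVLM, 0 of 8 passed in edgeR and 0 in limma voom (background 0.285%), with 1 at an unadjusted p under 0.05 in each. Beside Aldh1a1 the gene that passed was Rxrg, whose strain difference was lower in the NTS than in the RVLM by 0.59 ± 0.17 (-0.59, adjusted p = 0.0493). That call was lost with no filter on low counts (adjusted p = 0.0727), with the rat left out (0.0874) and without the libraries ending in 2 (0.0589).

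Markers of several cell types moved with Aldh1a1 among rats of a group. For oligodendrocytes, the summed CPM of 6 markers, among them Mbp, Mog, Mag, Mobp and Cnp, correlated with Aldh1a1 in deviations from the group means at r = 0.80 for NTS, 0.60 for CVLM and 0.38 for RVLM libraries (46 libraries each, which share depth and composition). For excitatory and inhibitory neurons the r values were 0.67, 0.44 and 0.37, and for astrocytes -0.03, 0.16 and 0.42. The lowest r values in the NTS were -0.49 for serotonergic, -0.49 for NTS and -0.39 for noradrenergic and adrenergic neuron markers. Of the serotonergic and of the NTS markers, 1 of 3 each was tested in the NTS. In the NTS at 8 wk the oligodendrocyte sum was 25935 to 46461 CPM in WKY rats and 36687 to 51383 CPM in SHRs, at 12 wk 21917 to 25715 and 23071 to 37591 CPM, and at 24 wk 20098 to 34498 and 21594 to 39216 CPM. The median strain difference of the 6 oligodendrocyte markers over 8 to 16 wk was 0.09 in the NTS with 0 of 6 called higher and 1 lower. It was -0.20 in the CVLM with 4 lower and -0.15 in the RVLM with 3 lower. Over all genes, 10% (NTS), 9.58% (CVLM) and 8.37% (RVLM) were called in either direction for this mean. The Aldh1a1 means over the same ages were 0.55, -0.28 and -0.43. In the RVLM, Aldh1a1 had its highest r with the sum of the 8 leptomeningeal markers (r = 0.65), of which 7 were tested, 1 called higher and 0 lower in SHRs over 8 to 16 wk. Each listed marker had counts in at least 1 library of the region, and the part of these cells in the Aldh1a1 differences was not tested.

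The genes closest to Aldh1a1 over the 30 group means, among 13115 tested genes, were Car2 (r = 0.96), a carbonic anhydrase of oligodendrocytes, Map1lc3b (0.93), Efna1 (0.93), Sgca (0.92) and Vamp1 (0.92). Over the deviations of all libraries from their group means they included Car14 (r = 0.74), Vmp1 (0.72), Car2 (0.71) and Rnf13 (0.69). The other 6 genes of the pathway that were tested in each region had r from -0.89 to -0.59 over the group means and from -0.32 to -0.03 over the deviations.

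The regions differed in the pathway genes in opposite directions. Aldh1a1 and Cyp26b1 were lowest in the NTS and highest in the RVLM, whereas Aldh1a2 and Rarb were highest in the NTS. Over all genes, 53.1% of the tests for 3 pairs of regions in both strains passed. Of these tests 26.3% were higher and 26.8% lower in the region named first (NTS before CVLM before RVLM). A region difference was thus common among all genes. No count of the 8 genes is set beside this share, because the 6 tests of Aldh1a1 pool the 5 ages. They hold the libraries of the choice, and the Aldh1a1 values are described below with no p.

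Aldh1a1 in the NTS lay below the RVLM by 2.51 ± 0.07 on the log2 scale in WKY rats, or 5.69-fold, and by 1.45 ± 0.05 in SHRs, or 2.72-fold (written as -2.51 and -1.45). The CVLM stood between them, at -0.98 ± 0.06 in WKY rats and -0.76 ± 0.05 in SHRs against the RVLM. The order NTS, CVLM, RVLM was thus the same in both strains.

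Aldh1a2, the other synthesis enzyme, had a median of 21.4 CPM in the NTS (4.06 to 69.7 CPM), 1.52 CPM in the CVLM (0.546 to 4.98 CPM) and 1.75 CPM in the RVLM (0.432 to 7.17 CPM). The NTS exceeded the RVLM by 3.66 ± 0.26 in WKY rats (12.7-fold, adjusted p = 5.81e-21) and 3.17 ± 0.20 in SHRs (9.01-fold, adjusted p = 1.94e-24). The CVLM and RVLM could not be separated (-0.20 ± 0.31 in WKY rats, adjusted p = 0.653, and -0.23 ± 0.22 in SHRs, adjusted p = 0.421). Its level in the NTS varied widely between rats of both strains.

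Crabp1, which binds retinoic acid in the cytoplasm, had medians of 30.9 (NTS), 24.3 (CVLM) and 10.2 CPM (RVLM). The NTS and CVLM exceeded the RVLM by 1.40 ± 0.18 and 1.26 ± 0.18 in WKY rats and by 1.25 ± 0.15 and 1.05 ± 0.15 in SHRs (highest adjusted p 1.71e-08), while NTS minus CVLM was 0.13 ± 0.17 and 0.20 ± 0.14 and did not pass (adjusted p = 0.541 and 0.216). Crabp2, which hands retinoic acid to nuclear receptors, had medians of 2.77, 1.33 and 1.82 CPM in the NTS, CVLM and RVLM. The NTS level exceeded that of the CVLM by 1.08 ± 0.21 in WKY rats and 0.90 ± 0.17 in SHRs (adjusted p = 7.21e-06 and 4.77e-06). Both binding proteins thus had their highest median in the NTS.

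Rarb, the receptor gene that retinoic acid itself induces, had medians of 38.8, 13.4 and 7.01 CPM from NTS to CVLM to RVLM. Each step passed in each strain, with NTS minus RVLM at 2.38 ± 0.09 and 2.30 ± 0.07 and CVLM minus RVLM at 0.82 ± 0.09 and 0.89 ± 0.07 in WKY rats and SHRs (highest adjusted p 2.19e-13). Rxrg, a partner receptor, had medians of 15.7, 14.1 and 5.49 CPM, and the NTS exceeded the RVLM by 1.68 ± 0.12 in WKY rats and 1.10 ± 0.10 in SHRs (adjusted p = 4.75e-21 and 1.37e-17). Its NTS and CVLM levels did not differ beyond their spread (0.26 ± 0.11, adjusted p = 0.0519, and -0.13 ± 0.09, adjusted p = 0.225). Rara, the broadly expressed receptor, had medians of 5.42, 4.27 and 4.10 CPM and exceeded its RVLM level in the NTS of WKY rats by 0.33 ± 0.11 (adjusted p = 0.00839).

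Cyp26b1, which clears retinoic acid, ran the other way. Its median was 17.3 CPM in the RVLM (10.8 to 28.7 CPM), 1.55 CPM in the CVLM and 0.669 CPM in the NTS, where 0 to 21 counts per library left it under the filter on low counts. The NTS lay below the RVLM by 4.53 in WKY rats and 4.91 in SHRs (-4.53 ± 0.21 and -4.91 ± 0.17, 23.0-fold and 30.2-fold). The joint fit kept genes that passed the filter in any region, and Cyp26b1 entered it through the CVLM and RVLM. Its NTS differences are therefore described with no p. The CVLM lay below the RVLM by -3.13 ± 0.19 and -3.72 ± 0.15 (adjusted p = 8.17e-25 and 3.56e-35).

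**Figure D3:**
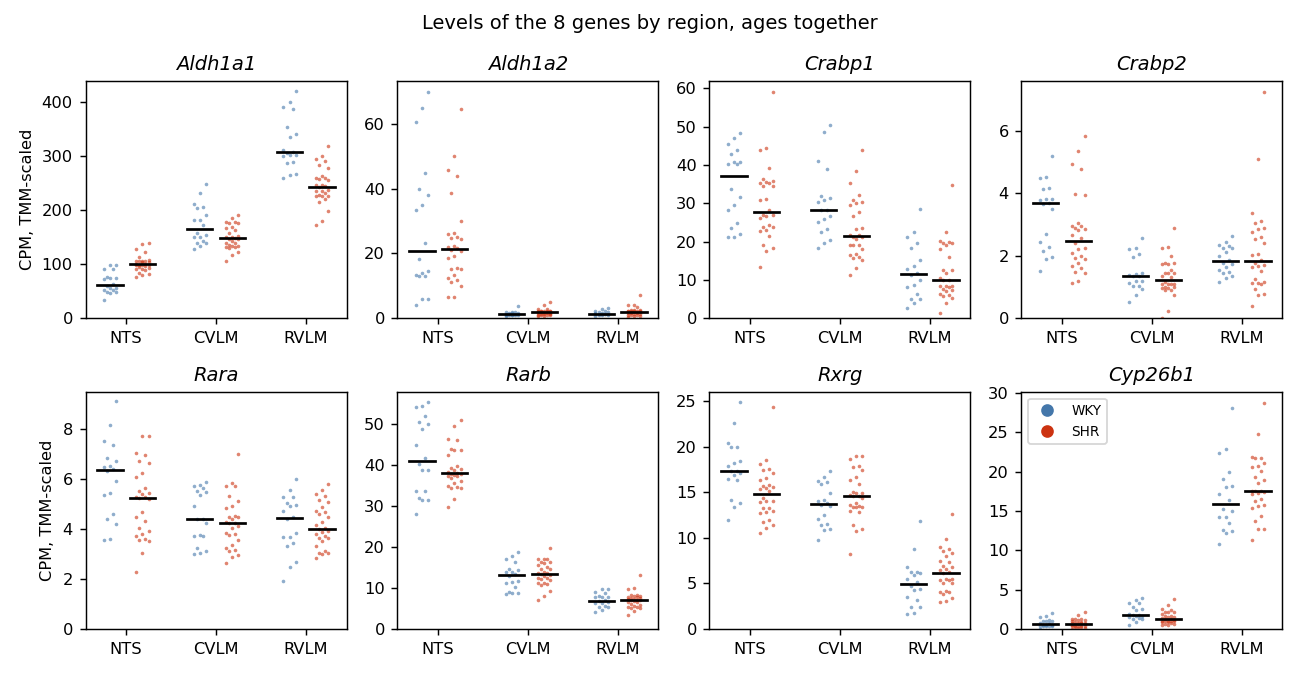
Level of each of the 8 genes in every library by region, ages together, in CPM on TMM-scaled library sizes, with WKY rats in blue, SHRs in red and bars at the strain medians. Each panel has its own axis from 0, and Aldh1a1 and Cyp26b1 peak in the RVLM (median 17.3 CPM for Cyp26b1) while Aldh1a2 and Rarb peak in the NTS (21.4 and 38.8 CPM).

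Between strains, most calls were of Aldh1a1. At the ages not used for the choice, 4 of 28 tests of the genes passed in the NTS (2 higher and 2 lower in SHRs, background 3.76%, with 1.72% higher and 2.04% lower), 2 of 40 in the CVLM (background 4.57%) and 1 of 32 in the RVLM (background 3.86%). Together 7 of 100 passed (background 4.1%), of which 5 were Aldh1a1, and the others were Rarb at 8 wk and Rxrg at 10 wk in the NTS. The median log2 fold change of the tests was -0.23 (NTS), -0.02 (CVLM) and 0.04 (RVLM), and it was 0.00 over all genes in each region. For the means over 8 to 16 wk, 2 of 7 genes passed in the NTS (background 10%), 1 of 8 in the CVLM (9.58%) and 1 of 8 in the RVLM (8.37%). These shares rest on few genes and mostly on Aldh1a1.

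Rxrg was lower in the NTS of SHRs. At 10 wk the WKY rats had 18.2, 17.9, 16.5 and 20.02 CPM and the SHRs 14.1, 10.52, 12.0, 13.96 and 13.3 CPM, with no overlap (log2 fold change -0.51 ± 0.16, adjusted p = 0.0496, background 4.44%). This call stood at the threshold and was lost in 33 of the 46 fits that left out a rat. The mean over 8 to 16 wk was -0.30 ± 0.08 (adjusted p = 0.00787), and the described 24-wk value was -0.20 ± 0.17. In the CVLM and RVLM the means over 8 to 16 wk were 0.12 ± 0.09 and 0.27 ± 0.18 (adjusted p = 0.614 and 0.473). Of 5 ependymal markers tested in the NTS, 2 were lower over 8 to 16 wk (median -0.82), and of 7 choroid plexus markers 3 were lower (median -2.12, background 10%). At 10 wk, the age of the Rxrg call, 0 of 5 ependymal markers were called (median -0.20), and at 12 wk 4 were lower (median -2.54, background 3.1%). Over the deviations of 46 libraries, Rxrg had r = 0.36 with the ependymal sum and -0.08 with the choroid plexus sum. The part of these cells in the Rxrg values was not tested.

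Rarb in the NTS at 8 wk was 33.6, 38.8, 55.3, 54.3 and 50.04 CPM in WKY rats and 29.8, 35.7, 31.7, 38.1 and 37.5 CPM in SHRs (-0.43 ± 0.12, adjusted p = 0.0276). The 3 highest WKY rats were those whose library name ends in 2. Without the libraries ending in 2 the difference was -0.07 (adjusted p = 0.901), with the ending number as a term it was -0.17 (adjusted p = 0.632), and it was also lost on leaving out SHR 1, 2 or 3 or WKY rat 3, 4 or 5 of that age (adjusted p 0.0546 to 0.121). The mean over 8 to 16 wk was -0.12 ± 0.06 (adjusted p = 0.325).

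For Aldh1a2, Crabp1, Crabp2, Rara and Cyp26b1, 0 of 61 strain tests passed in edgeR and 0 in DESeq2, with 5 at an unadjusted p under 0.05 in each. Aldh1a2 in the NTS at 12 wk had 40.0, 60.6 and 34.99 CPM in WKY rats and 6.62 to 29.9 CPM (median 19.7) in SHRs, with no overlap, and its difference of -1.38 ± 0.54 did not pass (adjusted p = 0.213). Markers of 3 cell types moved with that comparison. For the choroid plexus they had a sum of 10.1 to 4638 CPM in WKY rats and 2.15 to 8.00 CPM in SHRs at 12 wk and 6 of 7 tested markers called lower. Of 5 ependymal markers 4 were lower (median -2.54), and of 7 leptomeningeal markers 1 was lower, with a median of -0.50 and 0 above 0. Over the deviations of the 46 NTS libraries, Aldh1a2 had r = 0.13 with the choroid plexus sum, 0.26 with the ependymal and 0.33 with the leptomeningeal sum, and their part in the Aldh1a2 values was not tested. The highest r was with the serotonergic neuron markers (0.68), of which 1 of 3 passed the filter on low counts in the NTS. Next were noradrenergic and adrenergic neuron markers (0.41) and microglial markers (0.37), with 0 of 5 called in each list at 12 wk. Crabp2 in the NTS at 24 wk had 3.70, 4.48 and 4.54 CPM in WKY rats and 1.19 to 2.95 CPM (median 2.17) in SHRs, a described difference of -0.98 ± 0.37. In the CVLM at 24 wk Crabp2 again did not overlap (-0.73 ± 0.50, adjusted p = 0.398), and Crabp1 had -0.76 ± 0.28 (adjusted p = 0.0850). Rara in the NTS had -0.35 ± 0.13 over 8 to 16 wk (adjusted p = 0.0844), and Cyp26b1 in the CVLM -0.52 ± 0.20 (adjusted p = 0.113).

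**Figure D4:**
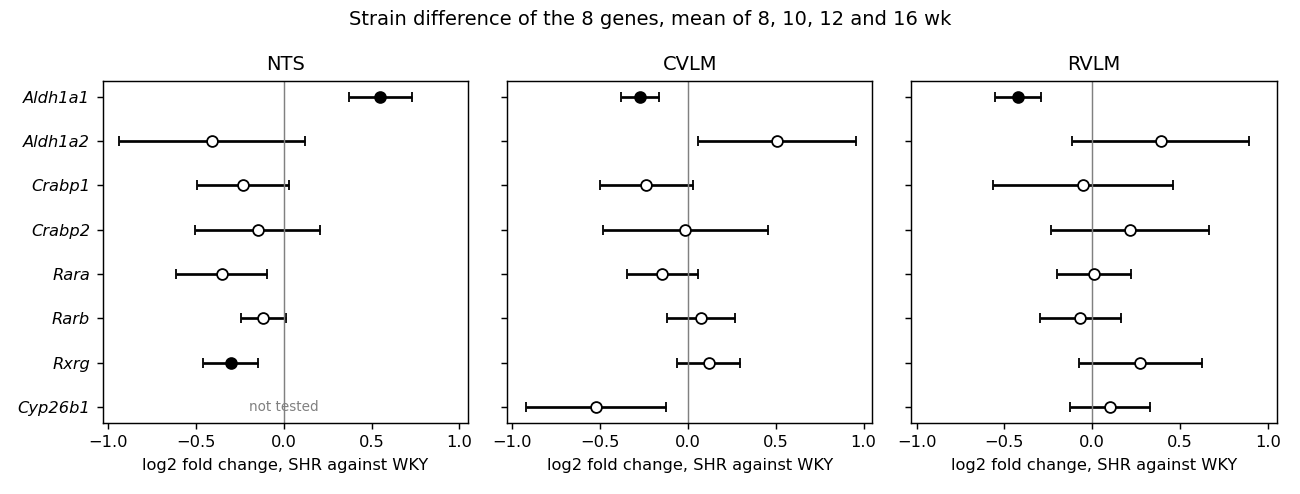
Strain difference of the 8 genes as a log2 fold change, SHRs against WKY rats, as the mean of 8, 10, 12 and 16 wk in the NTS, CVLM and RVLM. Bars are 95% intervals and filled symbols passed an adjusted p under 0.05, which were Aldh1a1 in each region (0.55, -0.28 and -0.43) and Rxrg in the NTS (-0.30), and Cyp26b1 was not tested in the NTS.

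Against the same strain at 8 wk, 1 of 42 age tests of the genes passed in the NTS (background 4.75%), 5 of 64 in the CVLM (background 5.81%) and 1 of 48 in the RVLM (background 3.72%). Aldh1a1 in the CVLM rose with age in SHRs, from 124 ± 13.0 CPM at 8 wk (n = 5) to 177 ± 11.8 CPM at 24 wk (n = 6), with every SHR of 24 wk above every SHR of 8 wk (log2 fold change 0.51 ± 0.10, adjusted p = 0.00332, background 0.649%). In WKY rats it fell by 0.48 ± 0.12 at 16 wk and by 0.37 ± 0.12 at 24 wk (-0.48 and -0.37, adjusted p = 0.0311 and 0.0382, background 1.98% and 13.7%). These falls were lost without the 8-wk libraries ending in 2, with values of -0.16 and -0.05 (adjusted p = 1 and 0.884), and on leaving out WKY rat 3, 4 or 5 of 8 wk or any 1 of the 3 WKY rats of the later age (adjusted p up to 0.198 and 0.164).

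The other age calls compared 10 with 8 wk in SHRs, where every 10-wk library name ends in 2 and every 8-wk name in 1, so that age and the ending number cannot be told apart and 27.1% of all genes in the NTS, 25.2% of those in the CVLM and 22% of those in the RVLM were called. They were Aldh1a1 (0.36 ± 0.10, adjusted p = 0.0120) and Rarb (0.63 ± 0.18, adjusted p = 0.0111) in the CVLM, Rarb in the NTS (0.38 ± 0.12, adjusted p = 0.0187) and Rara in the RVLM (-0.67 ± 0.20, adjusted p = 0.0150). Rara in the RVLM had 5.10, 5.16, 5.82, 5.42 and 4.16 CPM at 8 wk and 3.04, 3.66, 3.03, 3.00 and 3.34 CPM at 10 wk, with no overlap.

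For context, 52 other genes of retinoid transport, metabolism and signalling were listed, of which 47 were found by symbol and 36, 34 and 35 were tested in the NTS, CVLM and RVLM. In their strain tests at the 5 ages, 15 of 180 passed in the NTS (5 higher, 10 lower, background 3.5%, 1.61% and 1.9%), 19 of 170 in the CVLM (5 higher, 14 lower, background 4.57%, 1.81% and 2.76%) and 15 of 175 in the RVLM (6 higher, 9 lower, background 3.53%, 1.66% and 1.87%). The 49 of 525 calls (background 3.87%) fell on 15 of 38 genes, and Retsat and Rpe65 alone held 24 of them. The median log2 fold change of the list was 0.00, -0.04 and 0.00, beside 0.01, 0.00 and 0.01 over all genes.

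Retsat, which saturates retinol and so takes it out of the route to retinoic acid, was lower in SHRs at each of the 5 ages in each region. In the NTS at 8 wk it had 175 to 201 CPM in WKY rats and 82.3 to 93.5 CPM in SHRs, and the strains did not overlap in any of the 15 comparisons. Its log2 fold changes were -1.34 to -1.08 (NTS), -1.50 to -1.31 (CVLM) and -1.003 to -0.69 (RVLM, highest adjusted p 1.31e-05).

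Rpe65, the retinoid isomerase of the visual cycle, was higher in SHRs at all 5 ages in the CVLM (0.59 to 0.83, highest adjusted p 0.00614), at 10, 12 and 16 wk in the RVLM (0.89 to 0.96) and at 8 wk in the NTS (0.96, adjusted p = 0.000801). Its RVLM calls were lost in 1, 6 and 2 of the 46 fits that left out a rat. In the CVLM at 8 wk WKY rats had 8.94 to 12.8 CPM and SHRs 14.3 to 19.3 CPM, with no overlap. Rlbp1, which binds retinaldehyde, was lower in SHRs in the CVLM at 8, 10 and 12 wk (-0.56 to -0.42, the 8-wk call lost without the libraries ending in 2 at -0.28, adjusted p = 0.553) and in the RVLM at 10 and 12 wk (-0.52 and -0.54). Rbp4, which carries retinol in the blood, was lower in the CVLM at 10, 16 and 24 wk (-0.74, -0.78 and -0.88). These calls were lost in 5, 8 and 1 of the 46 fits that left out a rat. For the 24-wk call that was the fit without WKY rat 3 of that age (-0.65, adjusted p = 0.166).

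Other genes passed in single or paired tests. Higher in SHRs were Ppard, a nuclear receptor (NTS 24 wk, 0.90, and RVLM 8 wk, 0.80), Rdh13 (NTS 8 wk, 0.41, and RVLM 8 wk, 0.56) and Dhrs9 (NTS 8 wk, 1.16), which oxidize or reduce retinoids, and the coactivator Ncoa2 (RVLM 8 wk, 1.03). Among those lower were Rdh10, the main retinol dehydrogenase of the embryo (NTS 8 wk, -0.94, and RVLM 8 wk, -1.14), Rdh14 (RVLM 8 wk, -0.42), and the corepressor Ncor1 (NTS 8 wk, -0.95). Fabp5, a fatty acid binding protein that also binds retinoic acid, was higher in the NTS at 8 wk (0.66) and lower in the CVLM at 24 wk (-0.63). At 8 wk, where the WKY libraries ending in 2 enter, 8 of 36 listed genes passed in the NTS (background 5.79%) and 6 of 35 in the RVLM (background 9.78%), beside 1 to 3 at each other age in these regions. Without the libraries ending in 2, the 8-wk WKY group held 2 rats. In that fit 5 of these 8 and 5 of these 6 calls were lost (adjusted p 0.235 to 0.738). The NTS differences were then 1.12 for Dhrs9, -0.75 for Ncor1, -0.40 for Rdh10, 0.27 for Fabp5 and 0.20 for Rdh13. In the RVLM they were 0.69 for Ncoa2, 0.55 for Ppard, -0.66 for Rdh10, 0.41 for Rdh13 and -0.23 for Rdh14. Loss through fewer rats and loss through the ending number cannot be told apart here. Leaving out a rat lost the call of Rdh10 in the NTS in 33 of 46 fits, of Ncor1 in 14 and of Rdh14 in 10. Ttr, which carries Rbp4 and is the leading transcript of the choroid plexus, was called in the NTS at 8 and 12 wk and in the CVLM at 12 wk, kept without the libraries ending in 2, with 0.341 to 4437 CPM in WKY rats and 0 to 0.408 CPM in SHRs in the NTS at 12 wk. It was also in the list of choroid plexus markers, which were lower there as given above.

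**Figure D5:**
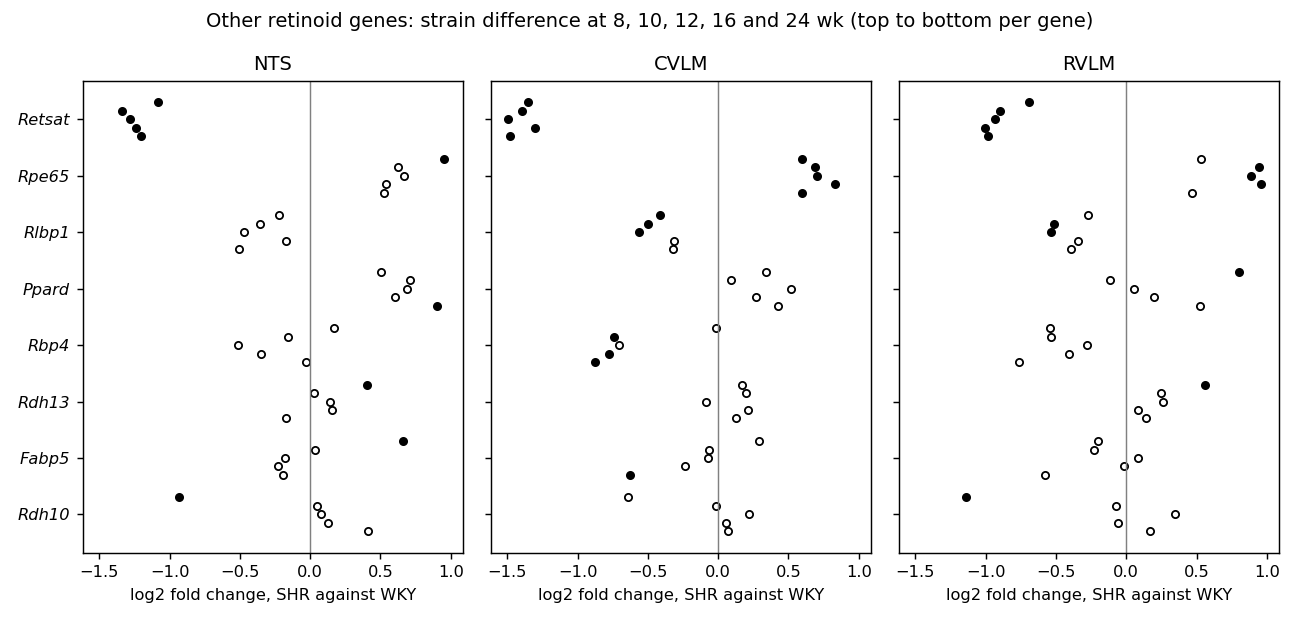
Strain differences of the 8 genes of the list with at least 2 calls, Ttr left out, as log2 fold changes, SHRs against WKY rats, in the NTS, CVLM and RVLM, with the 5 ages from top to bottom within a gene. Filled circles passed an adjusted p under 0.05, and Retsat lies at -0.69 or lower in all 15 comparisons while Rpe65 lies above 0.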

How the data were processed

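RNA of NTS, CVLM and RVLM punches from 46 female rats was sequenced. The authors aligned reads to rn6 with STAR within RSEM and deposited expected counts per gene, not normalized. Their methods name ComBat_seq, and whether it was applied to these tables is not stated. Samples were grouped by strain and age from their titles, and replicates were separate rats. Here expected counts were rounded, and genes with a maximum rlog value of at least 3.5 were kept (13793, 13408 and 13411 genes in the NTS, CVLM and RVLM). Each region was fitted with edgeR's quasi-likelihood test (TMM, 10 groups). Strain differences were compared between regions in a joint edgeR fit with the rat as a block. That fit held the 14043 genes that passed the filter in any region. P-values were adjusted by Benjamini-Hochberg over all genes tested, and a call is an adjusted p under 0.05. The 8 genes were named throughout, genes of the further list (at most 15) where any strain test passed, and the 5 genes most like Aldh1a1 by each measure of likeness. The scripts were tested on simulated data. Library totals of 5904570 to 17889400 counts limit the precision of low genes. Alternatives were DESeq2, RLE size factors, no filter, a replicate block, single ages, the ending number and rats left out. R 4.3.3, edgeR 4.0.16, limma 3.58.1 and DESeq2 1.42.0 were used. A few results of the gene lists are not reported here. The genes and lists were chosen with earlier results of these data known.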

Additional observations from a re-analysis of the deposited data

Results flagged for a closer look

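The strain difference of Aldh1a1 was not the same in the NTS as in the other regions, by the test of the difference itself. For NTS minus RVLM the log2 difference was 1.39 at 8 wk, 0.74 at 10 wk, 1.04 at 12 wk and 0.98 for the mean of 8 to 16 wk, and for NTS minus CVLM it was 1.37 at 8 wk, 0.84 at 12 wk and 0.83 for the mean. For Rxrg the NTS minus RVLM difference of the mean was -0.59.

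In 161 groups of 4 to 6 libraries, 12 held a library far from the others, where chance gives about 1 in 20 groups if values are normally distributed. CPM values of low genes need not be. All those flagged were of SHRs, and the WKY groups of 12, 16 and 24 wk, with 3 rats each, were too small to be examined. Aldh1a1 was 140.2 CPM in SHR 1 of 24 wk in the NTS (97.1 to 106 in the others), 178 CPM in SHR 6 of 12 wk in the CVLM, whose library name ends in 2 (132.6 to 149), and 180.4 CPM in SHR 2 of 16 wk in the RVLM (237 to 259.7). Rxrg was high in SHR 3 of 8 wk in both the NTS (18.5 CPM, others 11.5 to 12.8) and the CVLM (17.8 CPM, others 14.6 to 15.03). Aldh1a2 was 4.16 CPM in SHR 4 of 10 wk (1.59 to 2.24) and 4.98 CPM in SHR 2 of 24 wk (1.04 to 2.35) in the CVLM, and 3.98 CPM in SHR 5 of 8 wk in the RVLM (1.35 to 1.87). SHR 6 of 12 wk in the RVLM, whose library name ends in 2, had 7.17 CPM of Aldh1a2 (0.777 to 2.3003) and 7.24 CPM of Crabp2 (1.17 to 3.38), beside a leptomeningeal marker sum that was the highest of its group at 124 CPM. Rara was 5.59 CPM in SHR 3 of 12 wk (3.52 to 4.28) and Rarb 13.2 CPM in SHR 6 of 24 wk (5.89 to 8.06) in the RVLM.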

How the results depend on the processing

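The Aldh1a1 means over 8 to 16 wk kept their direction and call under every alternative run (NTS 0.51 to 0.64, CVLM -0.31 to -0.20, RVLM -0.47 to -0.35), as did NTS minus RVLM (0.94 to 1.07) and NTS minus CVLM (0.78 to 0.92). Strain calls of the 8 genes in the NTS (4) were 2 with no filter, 0 with each age fitted alone (10 of 28 at an unadjusted p under 0.05 in edgeR) and 2 to 4 with a rat left out. In the CVLM (2) they were 1 with no filter, 1 without the libraries ending in 2, 0 with each age alone (6 of 40 unadjusted) and 1 to 3 with a rat left out. In the RVLM (1) they were 2 with DESeq2, the replicate block, the ending number as a term or without the libraries ending in 2, and 1 to 2 with a rat left out. Age calls with the ending number as a term were 0 of 42 in the NTS (4 unadjusted, main 1), 1 in the CVLM (main 5) and 0 of 48 in the RVLM (2 unadjusted, main 1), and 3 in the NTS without the libraries ending in 2. With a rat left out they were 0 to 1 in the NTS and 3 to 6 in the CVLM. Under that term the SHR change from 8 to 10 wk turned to -0.016 for Rarb in the NTS (adjusted p = 0.983) and to -0.0014 for Aldh1a1 in the CVLM (adjusted p = 1.00). The further retinoid genes had 7, 11 and 7 calls in the NTS, CVLM and RVLM with each age alone, beside 15, 19 and 15, and 10 to 23 in the NTS with a rat left out. The cause of these changes was not tested.

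With the replicate number as a block, Aldh1a1 in the CVLM of WKY rats lost its age calls (-0.44 at 16 wk, adjusted p = 0.0517, and -0.33 at 24 wk, adjusted p = 0.0705). Rats of different strains with the same number deviated together (r over 0.1) in 12, 13 and 8 of 18 pairs in the NTS, CVLM and RVLM. Libraries of the same rat did so in 33 (NTS and CVLM), 31 (NTS and RVLM) and 23 (CVLM and RVLM) of 46 pairs. Rats of different number were not compared, so these shares have no baseline and cannot decide whether the numbers pair the strains. The labels name a separate rat for each strain and number. Leaving out rats in the joint fit used limma voom in place of edgeR, which was not run, and this and the libraries ending in 2 were alternatives chosen after seeing the data. Depth limits Cyp26b1 in the NTS (0 to 21 counts) and Crabp2 in the CVLM.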

Other observations

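Genes next to Aldh1a1 in the GRCr8 gene order were looked up after the values above were seen. Gda, a guanine deaminase, was lower in SHRs in each region over 8 to 16 wk (-0.69 ± 0.11 in the NTS, adjusted p = 6.46e-06, -0.75 in the CVLM, adjusted p = 0.00213, and -0.65 in the RVLM, adjusted p = 0.0114). Anxa1, an annexin, was lower in the NTS (-0.87 ± 0.17, adjusted p = 0.000291) and did not pass in the CVLM (-0.43, adjusted p = 0.114) or RVLM (0.00, adjusted p = 0.999). Zfand5 and Rorb did not pass for this mean in any of the 3 regions.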
